A study of Mus musculus with 12 samples.

Results

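The 31 genes described here are known mainly as genes of the endothelial cells that line blood and lymph vessels. They were taken by symbol from a list of endothelial genes that was written with earlier results of these data known. Each symbol matched exactly 1 of the 52550 Ensembl gene identifiers of the count table, so all 31 are accounted for. By role they are 9 receptors, 5 transcription factors, 9 junction and surface proteins, 6 secreted or matrix proteins and 2 signalling proteins. RNA sequencing covered mouse inguinal white fat (WAT) and brown fat (BAT), and each tissue had 3 control and 3 AKO libraries, 12 in 4 groups. Control mice were Mcu fl/fl, so both alleles of Mcu, which encodes the pore subunit of the mitochondrial calcium uniporter, were floxed and present. AKO mice were Mcu fl/fl AKO, with Mcu deleted in adipose tissue, and carry the same floxed alleles. All mice were fed a high-fat diet, per the design text of the series, which asks how the expression profiles of the genotypes differ in the 2 tissues. The promoter that drives the recombinase, the floxed exon and the sex and age of the mice were not given in the sources used here. Nothing in the labels says that replicates were separate animals, and a p-value then measures only the spread between these libraries, which may be technical.

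Endothelial cells receive growth signals of the VEGF family through the receptors Kdr and Flt1, and Flt4 serves chiefly the lymphatic branch. The angiopoietin receptor Tek and its partner Tie1 stabilise vessels, and transcription factors of the SOX F group (Sox7, Sox17, Sox18) and the ETS factor Erg maintain endothelial identity. Cdh5, Cldn5, Esam and Pecam1 hold neighbouring cells together. Brown fat is densely supplied with capillaries, which carry fuel and oxygen in and heat out, and white fat has a sparser network.

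Mcu itself was at 18, 18.7 and 18.8 CPM (normalised read counts) in the WAT controls and at 10.1, 12.5 and 10.9 in the WAT AKO libraries. In BAT the controls held 26.6, 28.8 and 24.0 CPM of Mcu and the AKO libraries 9.46, 14.6 and 8.28. Every AKO library was below every control library of its tissue. Ucp1, the uncoupling protein of brown adipocytes, lay between 3687 and 5087 CPM in the 6 BAT libraries and between 0 and 11.0 CPM in the 6 WAT libraries, so the libraries matched their tissue labels. CPM here and below are counts scaled to library size with TMM factors taken over all 12 libraries, and they compare libraries, not genes. Total counts ran from 15692588 to 18967159 per library, and TMM factors lay between 1.051 and 1.256 in WAT and between 0.845 and 0.875 in BAT.

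WAT control 3 stood apart for these genes. It was the highest of the 6 WAT libraries for 27 of the 31 genes, with a median deviation of 0.73 on the log2 scale from the mean of the WAT libraries, against -0.03 over all genes in the same library. The genes took 0.443% of its counts and between 0.188% and 0.284% of the counts of the other 5 WAT libraries. Its summed pericyte and smooth muscle markers were also highest, at 1540 CPM against 680 to 881 CPM in the rest of WAT. The lowest WAT library for 21 of the 31 genes was WAT AKO 2, with a median deviation of -0.41, and skeletal muscle genes took 1.73% of its counts. Muscle percentages here and below cover only 6 marker genes (Acta1, Ckm, Mylpf, Tnnt3, Myh4 and Tnnc2) and not all muscle transcripts. WAT control 1, with 1.003% muscle counts, had a median deviation of -0.03. In BAT the spread was smaller: median deviations ran from -0.22 in BAT AKO 3, lowest for 20 genes, to 0.14 in BAT control 2, and muscle genes took 0.0337% of the counts of BAT AKO 3. Since whole tissue was sequenced, fewer endothelial cells and less RNA per endothelial cell cannot be told apart in any value given here.

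**Figure D1:**
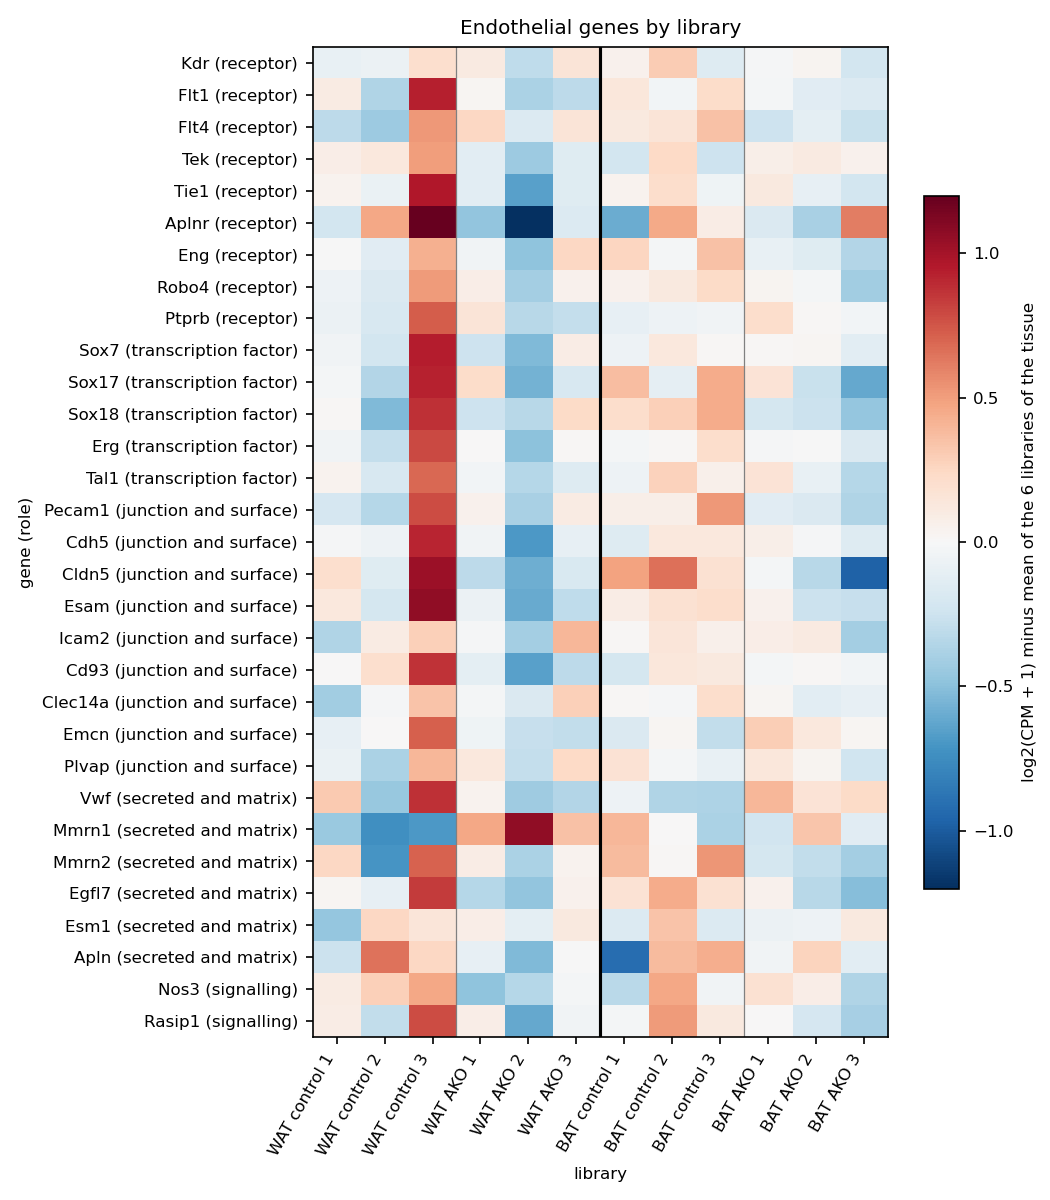
Each row is 1 of the 31 endothelial genes with its role and each column is 1 library; colour gives log2(CPM + 1) minus the mean of the 6 libraries of the same tissue, from blue (below) to red (above). WAT control 3 is red in nearly all rows, being the highest WAT library for 27 of the 31 genes, and Mmrn1 runs the other way in WAT.

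Levels can be compared between genes only per transcript length, as FPKM, the deposited values of fragments scaled to gene model length and library size. In WAT controls the highest levels were those of the tight junction protein Cldn5, at 159 ± 70.1 FPKM (SD, n = 3), the adherens junction cadherin Cdh5, at 86.5 ± 36.0 FPKM, and the fenestral diaphragm protein Plvap, at 79.7 ± 21.7 FPKM. In BAT controls Cdh5 was first, at 102.4 ± 12.2 FPKM, followed by Cldn5 at 82.1 ± 13.7 FPKM and the TGF-beta co-receptor endoglin (Eng) at 71.0 ± 9.09 FPKM. Plvap ranked 3 of 31 in WAT controls and 17 of 31 in BAT controls, where it was at 12.8 ± 1.11 FPKM. Mmrn1 and Esm1 were the lowest of the 31 genes in every group, at 0.919 FPKM or less. Of the 30 pairs of neighbours in the order of levels, 1 was separate in every library of WAT controls, 2 in WAT AKO, 8 in BAT controls and 8 in BAT AKO. Compared within each library, 14, 13, 11 and 15 of the 30 pairs had the same order in every library of these groups. Cldn5, for example, was above Cdh5 in each WAT control.

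The depot comparison gave the largest differences among these genes. In control mice 10 of the 30 genes that passed the filter on low counts differed between BAT and WAT at an adjusted p under 0.05 (edgeR's quasi-likelihood test, Benjamini-Hochberg over 15031 genes). Receptors made up most of the 8 that were higher in BAT: Kdr, Flt1, Flt4, Tie1 and Eng, with the transcription factor Sox7, the surface lectin Clec14a and the secreted protein Egfl7. Plvap and von Willebrand factor (Vwf) were lower in BAT. Over all genes tested 24.4% were higher and 25.7% lower, so the share of these genes that was higher (8 of 30) was near the background and the share that was lower was under it. Their median log2 difference was 0.42, against -0.04 over all genes tested. Esm1 did not pass the filter.

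Scaling bears on these directions. With library totals in place of TMM, an alternative chosen after seeing the data, the median of all genes moved to -0.40 in controls and -0.60 in AKO, and the share of calls that were higher in BAT went from 48.7% to 25.2% in controls and from 48.5% to 19.1% in AKO. The 31 genes then had medians of 0.06 and 0.09, still above all genes. Under that scaling Kdr, Flt1 and Eng were higher and Plvap and Vwf lower in BAT controls, as they were in all 14 settings run. Tie1 (0.54, adjusted p = 0.140), Flt4 (0.49, 0.166), Sox7 (0.73, 0.0812), Egfl7 (0.42, 0.206) and Clec14a (0.48, 0.125) kept their direction and lost their calls. Robo4, Pecam1, Esam, Cd93 and Mmrn2, called under neither scaling, turned from above to below 0. Cldn5 (-0.96, adjusted p = 0.0316, edgeR), Mmrn1 (-1.60, 0.0401) and Nos3 (-0.97, 0.0109) gained a call as lower in BAT controls. The share of all genes called lower there was 41.6%. Leaving out WAT control 3 raised the number higher in BAT controls from 8 to 22 of 30 (background 22.3%). Leaving out WAT control 2 gave 5 (background 23.4%) and WAT control 1 gave 4 (22.3%). Leaving out BAT control 1 or BAT control 2 gave 4 (18.9% and 20.3%), and BAT control 3 gave 3 (20.9%). The 22 of 30 was well above its background and the other counts were under theirs. The number of calls in controls thus moved with each library, most with WAT control 3, and the calls of Kdr, Flt1, Eng, Plvap and Vwf did not.

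Kdr, the main VEGF receptor (chr5:75932827-75978458, minus strand, mm10), was at 91.8, 93.0 and 112 CPM in the WAT controls and at 271, 323 and 235 CPM in the BAT controls. Every BAT library lay above every WAT library. Its log2 difference was 1.47 (SE 0.16, adjusted p = 0.000437, edgeR). Flt1, a VEGF receptor that also acts as a decoy (chr5:147561604-147726011, minus strand), was at 93.0, 67.2 and 167 CPM in WAT controls and at 283, 252 and 301 CPM in BAT controls. WAT control 3 was well above the other 2 WAT controls for Flt1 and still below all BAT libraries. The difference was 1.35 on the log2 scale (SE 0.32, adjusted p = 0.0118, edgeR). Eng (chr2:32646595-32682669, plus strand) was at 158, 145 and 214 CPM in WAT controls and at 344, 283 and 368 CPM in BAT controls, with no overlap. Its log2 difference was 0.94 (SE 0.18, adjusted p = 0.00521, edgeR). Eng shares 61 exon bases with Fpgs on the opposite strand, and Fpgs held 2444 counts over the 12 libraries against 44679 for Eng.

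The promoters of these 3 receptors, the members higher in BAT controls under every setting run, are shown as the reference sequence upstream of them. Each run is the 250 bases before the start of the RefSeq gene (GRCm38.p6), 5′ to 3′ on the strand of the gene, with matches to the ETS core (AGGAAG or CGGAAG, either strand) in capitals. They cover chr5:75978456-75978705 for Kdr, chr5:147726012-147726261 for Flt1 and chr2:32646345-32646594 for Eng.
Kdr: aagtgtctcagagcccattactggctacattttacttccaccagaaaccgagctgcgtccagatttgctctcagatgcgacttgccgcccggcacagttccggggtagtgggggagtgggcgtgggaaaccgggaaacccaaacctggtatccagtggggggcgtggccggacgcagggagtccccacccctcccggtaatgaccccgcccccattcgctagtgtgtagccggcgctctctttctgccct
Flt1: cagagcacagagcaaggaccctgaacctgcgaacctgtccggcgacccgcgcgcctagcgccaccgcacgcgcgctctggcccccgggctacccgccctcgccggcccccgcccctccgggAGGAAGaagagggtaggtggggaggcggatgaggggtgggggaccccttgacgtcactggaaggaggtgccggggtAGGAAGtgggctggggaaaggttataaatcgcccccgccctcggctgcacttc
Eng: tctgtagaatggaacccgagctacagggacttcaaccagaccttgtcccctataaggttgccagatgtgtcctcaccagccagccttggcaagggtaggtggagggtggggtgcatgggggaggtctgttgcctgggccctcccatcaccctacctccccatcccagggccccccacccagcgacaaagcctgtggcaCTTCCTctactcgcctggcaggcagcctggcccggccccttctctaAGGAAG
The Flt1 window holds 2 matches, which begin 129 and 53 bases before the start, and the Eng window holds 2, which begin 52 and 6 bases before it. The Kdr window holds none of these letters. RefSeq windows were matched for 17 of the 31 genes, 22 windows in all, and 45.5% of them held an ETS core against 39.2% of all 32841 windows. The SOX core (ACAAAG or ACAATG, either strand) was in 27.3% against 25.2%, and the GATA core (AGATAA, either strand) in 9.09% against 9.99%. A match is a run of letters and not a bound site.

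Among the other receptors Tie1 was at 106.5, 98.0 and 203 CPM in WAT controls and at 249.6, 281 and 235 CPM in BAT controls, a log2 difference of 0.90 (SE 0.28, adjusted p = 0.0339, edgeR). Flt4, the VEGF-C receptor, differed by 0.84 (SE 0.27, adjusted p = 0.0357). Tek did not pass the threshold, at 0.50 (adjusted p = 0.0525), with BAT libraries between 70.1 and 98.3 CPM and WAT libraries between 49.6 and 67.1 CPM. With the replicate number as a block, which pairs the BAT and WAT libraries of the same number, Tek passed (adjusted p = 0.0488), as did Cdh5 (0.0317) and the adhesion molecule Icam2 (0.0370), all higher in BAT. The apelin receptor Aplnr, at 26.2, 42.5 and 97.6 CPM in WAT controls, and the guidance receptor Robo4 and the phosphatase Ptprb overlapped between the depots. Among the transcription factors only Sox7 passed, at 18.6, 16.4 and 37.8 CPM in WAT controls and 48.6, 55.7 and 51.2 CPM in BAT controls (log2 difference 1.09, SE 0.31, adjusted p = 0.0236, edgeR). The others gave log2 differences of 0.53 for Sox18, 0.45 for Erg, 0.55 for Tal1 and -0.14 for Sox17.

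Plvap, which forms the diaphragms of fenestrae and caveolae (chr8:71497765-71511752, minus strand), was at 133, 107.7 and 185 CPM in WAT controls and at 32.5, 28.3 and 26.96 CPM in BAT controls. The depots were far apart, with the highest BAT library well below the lowest WAT library. Its log2 difference was -2.29 (SE 0.21, adjusted p = 0.000236, edgeR). Vwf, the platelet-tethering protein of the vessel wall (chr6:125546774-125686679, plus strand), was at 126, 73.7 and 188 CPM in WAT controls and at 43.7, 35.2 and 35.0 CPM in BAT controls, again without overlap. Its difference was -1.77 (SE 0.32, adjusted p = 0.00399, edgeR). Nos3, the endothelial nitric oxide synthase, was also lower in every BAT library, at 24.2 to 42.6 CPM against 42.7 to 55.2 CPM. It missed the threshold without the block (-0.61, adjusted p = 0.0515) and passed with it (-0.64, adjusted p = 0.0168). Nos3 shares 1040 exon bases with Gm15587 and 294 with Atg9b, both on the opposite strand, which held 109 and 514 counts in all against 7711 for Nos3. Egfl7, a secreted vessel protein, was higher in BAT at 0.77 (SE 0.26, adjusted p = 0.0416). It shares 64 exon bases with Agpat2 on the opposite strand, and Agpat2 held 138162 counts in all against 17062 for Egfl7, so reads at that overlap cannot be assigned without a stated strand setting.

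The remaining members gave smaller or less certain depot differences in controls. Clec14a was at 8.73, 11.8 and 15.5 CPM in WAT and at 20.8, 20.3 and 23.9 CPM in BAT, without overlap (0.84, SE 0.21, adjusted p = 0.0157, edgeR). Mmrn1 was at -1.25 (adjusted p = 0.101), Cldn5 at -0.60 (adjusted p = 0.142) and Apln, the ligand of Aplnr, at -0.59 (adjusted p = 0.325). Positive values that did not pass were 0.67 for Rasip1, a regulator of vessel lumen formation, 0.38 for Emcn, 0.35 for Pecam1, 0.32 for Mmrn2, 0.21 for Cd93 and 0.17 for Esam. Rasip1 shares 654 exon bases with Izumo1 on the same strand, 498 with A030001D20Rik and 222 with Gm45437 on the other, and Sox17 shares 804 with Gm37587, all of them with far fewer counts than the member.

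**Figure D2:**
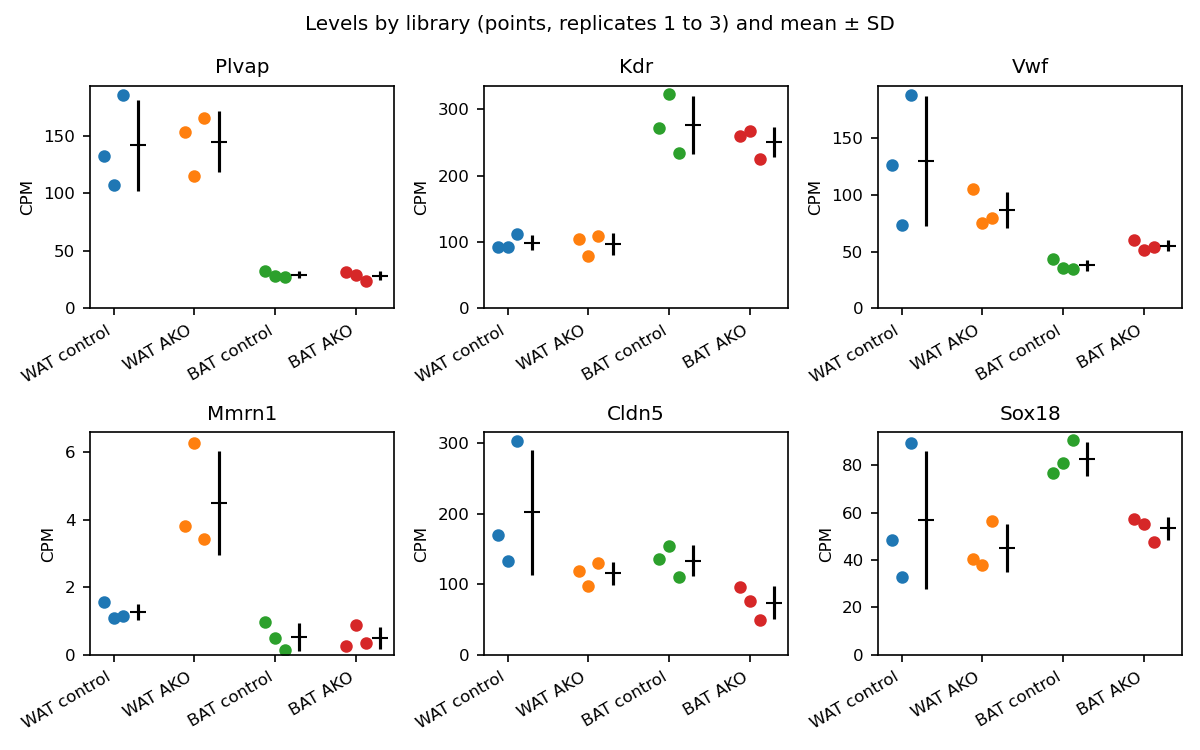
Points are the CPM of replicates 1 to 3 of each group for 6 of the genes, with the mean and SD as a bar beside them; each vertical axis starts at 0. Plvap sits between 24.2 and 32.5 CPM in BAT and at 107.7 CPM or more in WAT, and Kdr runs the other way.

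In AKO mice, whose libraries are not those of the control comparison, 22 of 31 genes differed between the depots, 18 of them higher in BAT and 4 lower. The background there was 28.8% higher and 30.5% lower of 15671 genes, and the median of these genes was 0.68 against -0.02 for all genes tested. Receptors again led: 8 of 9 were higher in BAT, led by Aplnr (1.95), Flt1 (1.75), Tie1 (1.53), Kdr (1.43) and Tek (1.21), with Robo4 at 0.30 (adjusted p = 0.158, edgeR). Under library totals without TMM, Robo4 (-0.29), Flt4 (-0.21) and Ptprb (-0.03) turned to the other direction, as did Sox18, Pecam1, Icam2 and Mmrn2. Of these Mmrn2 passed as lower (-0.55, adjusted p = 0.0207, edgeR), and 5 receptors kept their call as higher. Cldn5 (-1.16, adjusted p = 0.00448, edgeR) and Nos3 (-0.62, 0.0205) also gained a call as lower under that scaling. The share of all genes called lower there was 55.9%. Kdr, Flt1, Tek, Tie1, Aplnr, Sox7, Cdh5 and the sialomucin Emcn were higher, and Plvap, Mmrn1 and Esm1 lower, in all 14 settings. Vwf was below 0 in all 14, from -1.16 to -0.42, and lost its call in 1, the fit of all 12 libraries (-0.65, adjusted p = 0.0592).

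Aplnr was at 21.7, 12.3 and 27.2 CPM in WAT AKO and at 62.4, 53.7 and 109 CPM in BAT AKO. Tek was at 42.9, 34.5 and 42.3 CPM in WAT AKO and at 87.7, 89.5 and 86.1 CPM in BAT AKO, each BAT library above every WAT library. Its SE was 0.10 and its adjusted p 5.01e-05 (edgeR). Emcn was at 20.7, 17.6 and 17.4 CPM in WAT AKO and at 46.5, 41.0 and 38.1 CPM in BAT AKO (log2 difference 1.24, SE 0.12, adjusted p = 0.000106, edgeR). Sox7 was at 16.03, 13.0 and 20.5 CPM against 51.3, 51.7 and 46.4 CPM, the largest difference of the 5 transcription factors (1.66, SE 0.16, adjusted p = 8.87e-05, edgeR). Plvap was at 153.5, 115 and 166 CPM in WAT AKO and at 31.6, 29.4 and 24.2 CPM in BAT AKO, a log2 difference of -2.28 (SE 0.16, adjusted p = 2.65e-05, edgeR) beside -2.29 in controls. Vwf was at 104.9, 75.1 and 79.5 CPM against 60.5, 51.3 and 53.8 CPM, a log2 difference of -0.58 (SE 0.14, adjusted p = 0.00992, edgeR) beside -1.77 in controls. Esm1, a secreted proteoglycan of sprouting vessels, was at 0.821, 0.597 and 0.871 CPM against 0.0686, 0.0735 and 0.216 CPM, or 1, 1 and 3 counts in the BAT AKO libraries. With the block Flt4 lost its call (adjusted p = 0.0596) and Cldn5 gained one as lower in BAT (-0.61, adjusted p = 0.0441).

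Of the 30 genes tested in both genotypes, 29 had the same sign in the 2 depot comparisons, which share no library. All 10 genes called in controls were called in AKO in the same direction, 8 higher and 2 lower in BAT, and 11 more were called in AKO only. Of all genes tested, 24.4% were called higher and 25.7% lower in controls, and 28.8% and 30.5% in AKO. How many of all genes agreed in sign or in call was not counted, so this agreement is not shown to be particular to these genes. The difference between the genotypes in the depot contrast is the interaction tested further on.

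**Figure D3:**
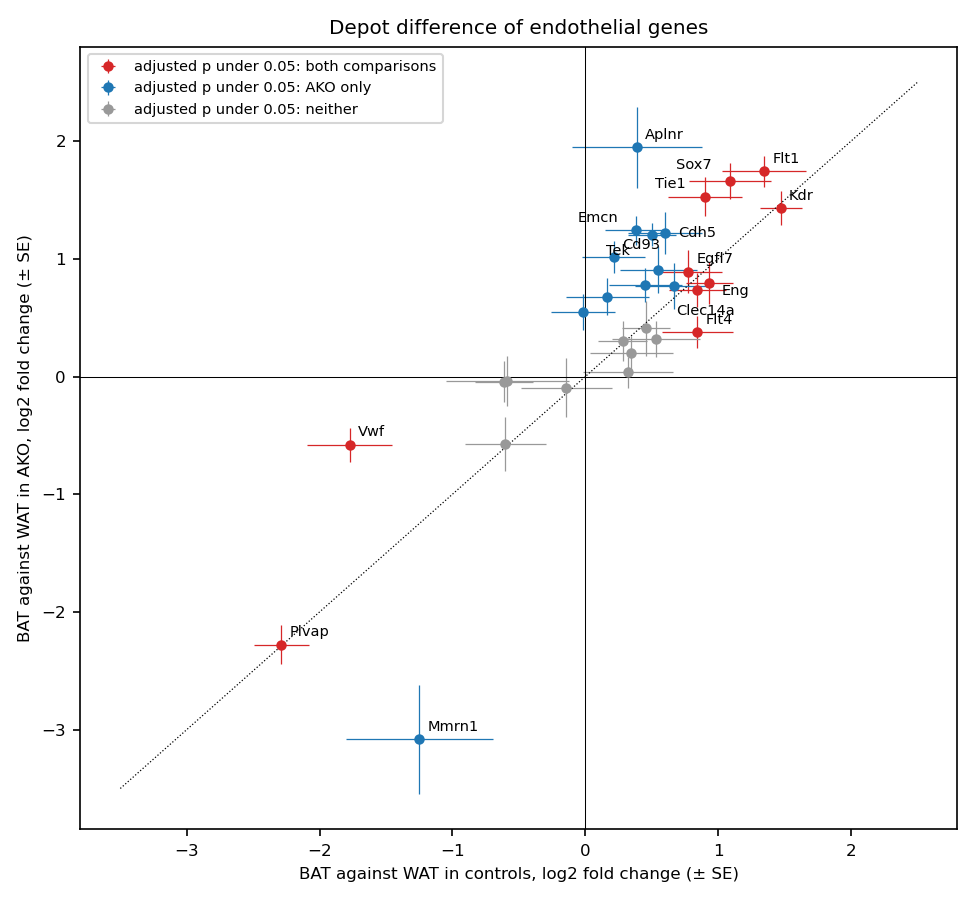
Each point is 1 of the 30 genes tested in both genotypes, with the BAT against WAT log2 difference in controls on the horizontal axis and in AKO on the vertical axis; bars are SE and the dotted line marks equal values. The 10 genes called in both (red) lie in the upper right and lower left, with Plvap at -2.29 and -2.28.

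A measure that no scaling factor can move is the count of a gene as a percentage of the Cdh5 count in the same library; it was chosen after seeing the data, and it moves when Cdh5 moves. Plvap was at 52.8%, 44.2% and 38.6% of Cdh5 in WAT controls and at 7.48%, 5.36% and 5.12% in BAT controls. Vwf was at 50.2%, 30.3% and 39.1% in WAT controls against 10.1%, 6.68% and 6.65% in BAT controls, and Cldn5 at 67.4%, 54.9% and 63.1% against 31.5%, 29.3% and 21.0%. Kdr ran the other way, at 36.5%, 38.2% and 23.4% against 62.4%, 61.2% and 44.6%. Flt1 did so too, at 36.9%, 27.6% and 34.8% against 65.2%, 47.8% and 57.2%. None of these 5 genes overlapped between the depots. For 5 of the 30 genes other than Cdh5 the BAT controls were all above the WAT controls (background 7.85% of genes tested), and for 12 all were below (background 39.8%). An exact permutation test of 3 libraries against 3 cannot go below p = 0.1 and gave that value for each of these 5 genes.

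**Figure D4:**
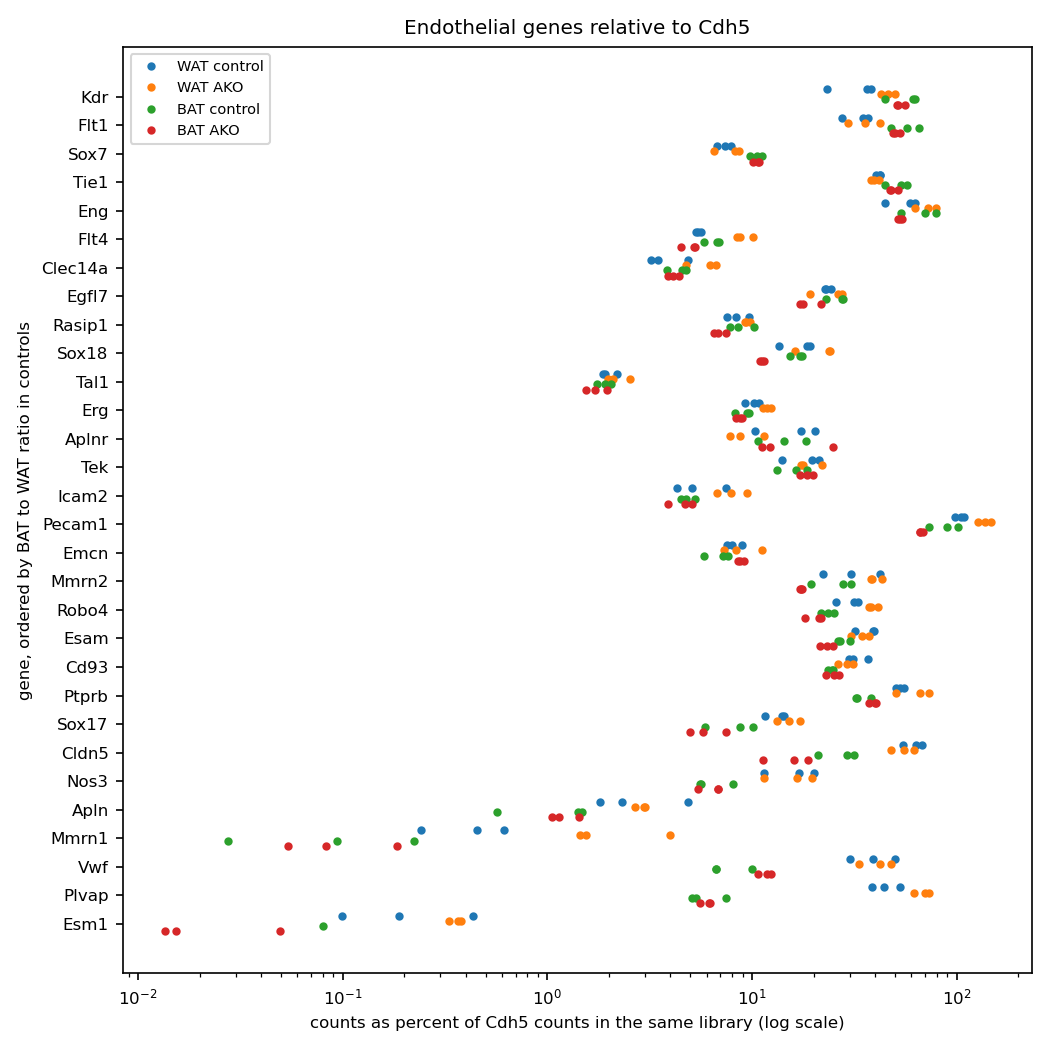
Each point is 1 library: the count of a gene as a percentage of the Cdh5 count of the same library on a log axis, with genes ordered by their BAT to WAT ratio in controls and libraries at a count of 0 (Esm1 in BAT) not drawn. The BAT libraries lie to the left of the WAT libraries for Plvap and Vwf and to the right for Kdr.

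Loss of Mcu gave no called change among these genes in WAT. None of the 31 passed the threshold (edgeR), where the background was 0.0189%, 3 of 15915 genes, all higher. At an unadjusted p under 0.05 there were 6 genes, 5 lower (background 12%) and 1 higher (background 10.6%), and DESeq2 called 1 higher (background 4.4%) and 3 lower (background 6.15%). The log2 fold changes were below 0 for 26 of 31, against 49.5% of all genes tested, with a median of -0.47 against 0.00 for all genes. Without WAT control 3 the median was -0.09 and 18 of 31 were below 0. Without WAT AKO 2 it was -0.30, and with WAT control 2 as the only control it was 0.03 with 17 of 31 above 0. The size of the median therefore rests on WAT control 3. In 5 genes every AKO library was below every control (background 14.5%) and in 1 every AKO library was above (background 15.9%), so the lower count was near its background and the higher count was under it.

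Those 5 were Nos3, Tek, Cd93, Cldn5 and Tie1. Nos3 was at 42.7, 48.7 and 55.2 CPM in WAT controls and at 28.1, 31.1 and 39.2 CPM in WAT AKO. Its WAT controls, control 3 included, lay close together. The log2 fold change was -0.60 (SE 0.16, adjusted p = 0.123, edgeR). Tek was at 49.6, 51.6 and 67.1 CPM against 42.9, 34.5 and 42.3 CPM, or -0.51 in log2 fold change (SE 0.16, adjusted p = 0.145, edgeR). Cd93, a surface glycoprotein that binds Mmrn2, was at 78.4, 89.9 and 143 CPM against 72.0, 49.2 and 62.5 CPM (-0.78, SE 0.26, adjusted p = 0.164, edgeR). Cldn5 was at 169.7, 134 and 303 CPM against 119, 98.1 and 130.5 CPM (-0.83, SE 0.31, adjusted p = 0.192, edgeR). For Cd93 and Cldn5 the third control stood far above the other 2. That control was the highest for all 5 genes, so leaving it out could not undo their separation. Nos3, Tek, Cd93 and Cldn5 were below 0 in all 16 settings. Aplnr had the lowest fold change, at -1.47 (SE 0.53, adjusted p = 0.18, edgeR), from 26.2, 42.5 and 97.6 CPM to 21.7, 12.3 and 27.2 CPM, and its groups overlapped. DESeq2 called Nos3 (adjusted p = 0.027), Cd93 (0.0444) and Aplnr (0.0284) as lower.

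Pecam1 and Cdh5, the most used endothelial markers, did not separate the groups. Pecam1 was at 264, 239 and 522 CPM in WAT controls and at 314, 231 and 326 CPM in WAT AKO, a log2 change of -0.26 (SE 0.33, adjusted p = 0.655, edgeR) that became 0.19 without WAT control 3. Cdh5 was at 252, 243.5 and 480.2 CPM against 247, 158 and 237 CPM, a log2 change of -0.63 (SE 0.32, adjusted p = 0.289, edgeR) with overlap. Plvap, at 0.00, Kdr, at -0.04, Clec14a, at 0.02, and Icam2, at -0.03, had fold changes close to 0, with 95% intervals of -0.56 to 0.57 for Plvap and -0.41 to 0.33 for Kdr.

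Mmrn1 was the 1 gene with higher values in every WAT AKO library. It encodes multimerin 1, made by lymphatic endothelium and by megakaryocytes (chr6:60924976-60989378, plus strand). Its levels were low: 1.55, 1.10 and 1.16 CPM in WAT controls and 3.80, 6.27 and 3.44 CPM in WAT AKO, from 31, 23 and 23 counts against 88, 126 and 75. The log2 fold change was 1.80 (SE 0.32, adjusted p = 0.0811, edgeR), and DESeq2 gave an adjusted p of 0.000372. Mmrn1 also passed in edgeR without the filter (adjusted p = 0.046, background 0.328% higher) and without WAT control 2 (0.0451, background 6.51% higher). Its adjusted p ran from 0.000372 to 0.316 over the alternatives, with all values above 0. In BAT it did not pass the filter, at 0.969 CPM or less in every library. The lymphatic list (Prox1, Lyve1, Pdpn, Ccl21a and Reln) had no called gene in WAT. Prox1, the transcription factor that sets lymphatic identity, was at 0.602, 0.908 and 0.454 CPM in WAT controls and at 2.16, 3.04 and 3.21 CPM in WAT AKO, without overlap (2.06, adjusted p = 0.0749, edgeR). Lyve1, shared by lymphatic endothelium and macrophages, overlapped at -0.07, and Pdpn was at -0.81 (adjusted p = 0.104). Among the megakaryocyte and platelet genes Itga2b, an integrin subunit of that lineage, was at 3.16, 5.31 and 3.13 CPM in WAT controls and at 8.51, 8.61 and 11.05 CPM in WAT AKO, without overlap (1.26, adjusted p = 0.0945, edgeR). Pf4, the most abundant of them, was lower in every AKO library (-0.58, adjusted p = 0.0945), and the 5 genes summed to 26.0 to 32.1 CPM in controls and 26.4 to 28.0 CPM in AKO. The part of these cells in the Mmrn1 value was not tested.

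Transcripts of lymph node tissue were higher in the WAT AKO libraries as well, with an overlap for the sum of the T lymphocyte genes. The high endothelial venule genes (Glycam1, Madcam1, Chst4 and Fut7), which mark the vessels through which lymphocytes enter lymph nodes, summed to 0.702, 14.3 and 0.606 CPM in WAT controls and to 39.5, 31.01 and 43.5 CPM in WAT AKO, with all 4 of them above 0 in log2 fold change and none called. Glycam1 was at 0 in WAT controls 1 and 3 and in all 6 BAT libraries. The 4 B lymphocyte genes summed to 1.81, 224 and 1.36 CPM in WAT controls and 366, 273 and 642 CPM in WAT AKO, and the 4 T lymphocyte genes to 3.01, 117 and 7.98 CPM against 98.5, 106.5 and 184 CPM. The chemokine Ccl21a followed them, at 1.40, 91.3 and 1.97 CPM against 149, 105.0 and 205 CPM. WAT control 2, the control with these transcripts, was not raised in Mmrn1 (1.10 CPM) and was at 0.908 CPM for Prox1. Within WAT AKO, library 2 had the highest Mmrn1 (6.27 CPM) and the lowest venule and B lymphocyte sums. The part of lymph node tissue in the Mmrn1 value was not tested.

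**Figure D5:**
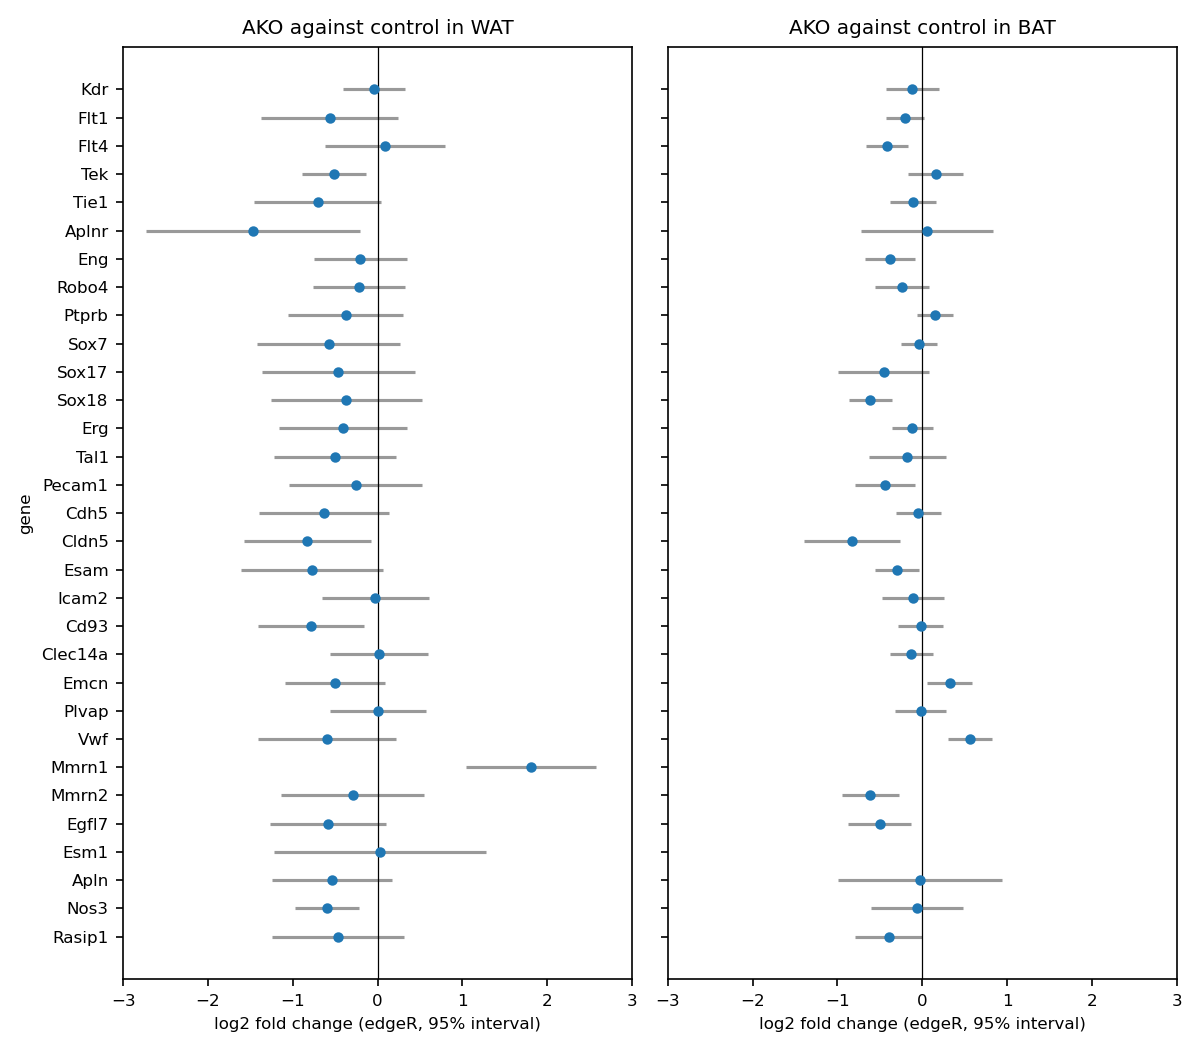
Log2 fold changes of AKO against control with 95% intervals from edgeR, for each of the 31 genes, in WAT (left) and in BAT (right, without Mmrn1 and Esm1, which did not pass the filter). Most points lie below 0 in both tissues, most intervals are narrower in BAT, and no gene passed an adjusted p of 0.05.

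In BAT, too, none of the 29 genes tested passed the threshold with edgeR, where the background was 0.0771%, 11 of 14265 genes. At an unadjusted p under 0.05 there were 11 genes, 9 lower (background 6.62%) and 2 higher (background 7%), and DESeq2 called 1 higher (background 0.932%) and 3 lower (background 1.03%). Fold changes were below 0 for 24 of 29, against 48.4% of all genes tested, with a median of -0.12 against 0.01 for all genes. Leaving out single libraries kept the median of the 29 genes between -0.20 and -0.06. The number below 0 fell to 19 of 30 genes tested without BAT AKO 3 and to 20 of 30 without BAT control 2. In 9 genes every AKO library was below every control (background 11.5%), and in 2 every AKO library was above (background 8.19%). These were members of every role but signalling: the receptors Flt4, Eng and Robo4, the transcription factor Sox18, the junction proteins Pecam1, Cldn5 and Esam, and the secreted proteins Mmrn2 and Egfl7, with Vwf and Ptprb on the other side.

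Sox18, a SOX F factor of blood and lymph vessels (chr2:181669836-181671640, minus strand), was at 76.6, 80.8 and 90.6 CPM in BAT controls and at 57.2, 55.1 and 47.8 CPM in BAT AKO. The 2 groups were far apart for their spread. Its log2 fold change was -0.61 (SE 0.11, adjusted p = 0.205, edgeR), and DESeq2 gave an adjusted p of 0.00117. The other SOX F factors were at -0.04 for Sox7 and -0.45 for Sox17, both overlapping. Mmrn2, a matrix protein that surrounds endothelial cells and binds Cd93, was at 133, 102.8 and 147 CPM against 87.7, 82.7 and 76.7 CPM (-0.61, SE 0.14, adjusted p = 0.247, edgeR). Without BAT control 2 it passed the threshold in edgeR (adjusted p = 0.0455, background 0.418% lower). Cldn5 was at 137, 154 and 110.5 CPM against 96.0, 77.0 and 49.3 CPM (-0.83, SE 0.24, adjusted p = 0.279, edgeR). BAT AKO 3 was the lowest library for Cldn5 and gave the widest gap.

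Pecam1 was at 389, 389 and 532 CPM in BAT controls and at 336, 328 and 289 CPM in BAT AKO (-0.44, SE 0.15, adjusted p = 0.32, edgeR), so the highest control stood apart and the rest lay nearer. Cdh5 was at 434.5, 527 and 526 CPM against 508, 479 and 435 CPM, with a log2 fold change of -0.04 and a 95% interval of -0.31 to 0.22. Emcn (0.32), Tek (0.16), Aplnr (0.05), Nos3 (-0.06), Rasip1 (-0.40) and Apln (-0.03) overlapped. Flt4 was at 29.96, 30.6 and 35.4 CPM against 23.0, 25.3 and 22.7 CPM (-0.42, SE 0.11, adjusted p = 0.263, edgeR). Eng, at -0.38 (adjusted p = 0.319), and Egfl7, at -0.50 (adjusted p = 0.297), were lower in each AKO library as well. Vwf was at 43.7, 35.2 and 35.0 CPM against 60.5, 51.3 and 53.8 CPM (0.56, SE 0.11, adjusted p = 0.223, edgeR), and DESeq2 gave an adjusted p of 0.0092. Skeletal muscle genes took 1.13% of the counts of BAT AKO 2 and at most 0.123% in the other BAT libraries; without BAT AKO 2 the median was -0.18 and 24 of 29 genes were below 0.

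Relative to Cdh5 the BAT genotypes differed in 11 of 30 genes without overlap, 9 lower in AKO (background 5.17%) and 2 higher (background 6.82%). Pecam1 was at 89.6%, 73.7% and 101% of Cdh5 in BAT controls and at 66.0%, 68.5% and 66.4% in BAT AKO. Sox18 was at 17.6%, 15.3% and 17.2% against 11.3%, 11.5% and 11.0%, and Cldn5 at 31.5%, 29.3% and 21.0% against 18.9%, 16.1% and 11.3%. Vwf was at 10.1%, 6.68% and 6.65% against 11.9%, 10.7% and 12.4%, and Emcn at 7.63%, 7.24% and 5.80% against 9.14%, 8.57% and 8.76%. In WAT the same measure gave 7 genes higher in AKO (background 30%) and 0 lower (background 0.591%), among them Plvap at 62.2%, 73.0% and 70.0% against 52.8%, 44.2% and 38.6%. Cdh5 itself was lower in WAT AKO by 0.63 on the log2 scale without passing the test, and each of these ratios carries that difference.

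The difference between the 2 tissues in the effect of the deletion was tested as an interaction on all 12 libraries, taking the AKO effect in BAT minus that in WAT. None of the 31 genes passed (edgeR), where the background was 0.275%, 45 of 16391 genes. At an unadjusted p under 0.05 there were 5 genes, 4 higher (background 8.34%) and 1 lower (background 10.1%), and DESeq2 called 1, Vwf, as higher (background 3.76%). The median was 0.04, against -0.02 over all genes tested. Vwf had the smallest p, with an interaction of 1.12 on the log2 scale (SE 0.38, adjusted p = 0.167, edgeR). Its AKO effect was -0.60 in WAT and 0.56 in BAT, and in WAT the groups overlapped. It passed in edgeR without WAT control 2 (adjusted p = 0.017, background 1.44% higher) and with DESeq2 (adjusted p = 0.0387). Tek (0.63), Emcn (0.78), Cd93 (0.72) and Aplnr (1.48) had higher interactions and Mmrn1 (-1.91) a lower one, with adjusted p-values from 0.174 to 0.276.

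Genes of the same pathways were taken from lists that share no member with the 31. No gene of these lists passed in either AKO comparison. Their counts between the depots are to be read against the shares of all genes tested, 24.4% higher and 25.7% lower in controls and 28.8% and 30.5% in AKO. In the depot comparison of controls, the list of VEGF and angiopoietin ligands and co-receptors had 4 genes of 9 higher in BAT and 1 lower. Vegfa, the main ligand of Kdr, was at 212.5, 186 and 144 CPM in WAT controls and at 594, 643 and 572 CPM in BAT controls (1.73, adjusted p = 0.000303, edgeR). Vegfb, a ligand of Flt1, was higher by 1.37 and the co-receptor Nrp2 by 1.68, while Vegfd, a ligand of Flt4, was lower, at -2.69. In AKO 5 were higher and 3 lower, with Vegfa at 1.38, Vegfb at 1.48, Nrp2 at 2.62 and Vegfd at -1.90.

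Of 5 venous genes 3 were lower in BAT controls, among them Ackr1, the chemokine receptor of venules (-2.69), the leukocyte adhesion receptor Selp (-2.42) and Vcam1 (-1.47), and 3 were lower in AKO with 1 higher. All 6 capillary genes had positive values, with 3 called higher in controls, among them Aqp1 (0.95), a water channel, and 6 called in AKO. The surface and signalling list had 5 higher and 1 lower of 12 in controls, led by Arhgef15 (1.48), and 9 higher and 1 lower in AKO. The Notch and arterial list had 1 higher and 3 lower of 13 in controls and 3 higher and 2 lower in AKO, and the further endothelial transcription factors 3 higher and 3 lower of 13 in controls and 5 higher and 4 lower in AKO. The lymphatic list had 2 lower of 4 tested in controls (Lyve1 -1.89 and Pdpn -1.75) and all 5 lower in AKO. Vessel basement membrane genes had 8 of 9 lower in controls, led by Nid2 (-2.36) and Nid1 (-2.28), and 6 lower and 1 higher in AKO; other cells of fat also make these proteins. The 4 proliferation genes were all lower in BAT controls, among them Mki67 (-2.49), and 3 were lower in AKO.

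In BAT AKO every library was below every control for 7 of the 13 genes of the Notch and arterial list, against a background of 11.5%, and none passed the test. These were the receptors Notch1 (-0.36) and Notch4 (-0.47), Hey1 (-0.90), the ligand Efnb2 (-0.42), the gap junction protein Gja4 (-0.95, adjusted p = 0.153, edgeR), Sema3g (-0.48) and the TGF-beta receptor Acvrl1 (-0.38). On the same list 3 of 13 had values above 0, the highest at 0.64. The other Hey genes did not fall: mean Heyl was 47.6 CPM in BAT controls and 51.3 in BAT AKO, and mean Hey2 1.46 and 1.71. In WAT AKO all 9 vessel basement membrane genes had values below 0, with a median of -0.60 and none called. For 7 of them every AKO library was below every control, against a background of 14.5%. Of the 5 venous genes 4 had values below 0 in WAT AKO, with a median of -0.53 and the lowest for Selp (-0.96). The venous gene above 0 was Vcam1, an adhesion molecule of activated endothelium, at 1.18 (adjusted p = 0.0634, edgeR). Ramp2, the adrenomedullin receptor partner, was at -0.77 (adjusted p = 0.0749). The pericyte and smooth muscle list had all 8 tested genes below 0 in WAT AKO (median -0.41), which moves with the 31 genes, and none was called. Its genes summed to 881, 728 and 1540 CPM in WAT controls and to 809, 680 and 804 CPM in WAT AKO, so WAT control 3 stood apart here too. A median without that library was not computed for the list. In BAT the median of the list was 0.02. None of the 13 lists of other cell types had a called gene in either AKO comparison. In WAT AKO their medians were -0.38 for adipocytes, 0.34 for brown adipocytes, -0.87 for macrophages, -0.11 for platelets, 0.00 for erythroid cells, 2.48 for B and 1.68 for T lymphocytes, 0.40 for skeletal muscle, -0.28 for Schwann cells and -0.36 for progenitors. In BAT AKO they were 0.17, 0.12, -0.43, -0.12, -0.22, 0.01, 0.37, 3.36, -0.05 and 0.19 in the same order. The epithelial and mesothelial lists had 1 tested gene each in WAT, at 2.81 and 1.70, and in BAT the mesothelial gene was at 0.22. Their part in the values of the endothelial genes was not tested.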

How the data were processed

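Polyadenylated RNA of 12 libraries was sequenced, per the labels' protocols after TRIzol isolation with the VAHTS Universal V6 kit. The authors deposited raw counts, whole numbers per Ensembl identifier and library with no normalisation. They also deposited FPKM values, used only to compare genes: each equals the count times 1 factor of the gene over the total of its library, within a relative 1.75e-08 at 20 counts or more. The submitters' processing notes name HTSeq 0.6.0, HISAT2 2.1.0, Bowtie2 2.2.3 and mm10. What each tool did, the annotation and whether strand was used were not given in the sources used here, so for overlapping genes the strand of a read is unknown. Symbols and coordinates are from GENCODE M21 of that build, and promoter sequences from RefSeq on GRCm38.p6.

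Genes passing filterByExpr with its defaults were tested by edgeR 4.0.16 (R 4.3.3, TMM, quasi-likelihood). The filter turns a minimum of 10 counts into a CPM cutoff, to be met in as many libraries as the smallest group holds. It also asks for 15 counts in total. P-values were adjusted by Benjamini-Hochberg across every gene tested, and genes were called under 0.05. Each of the 4 comparisons of 2 groups used the 6 libraries of those groups, and the interaction used all 12. For single values the exact permutation test, two-sided, was used. Replicates were distinct libraries: their chi-square per degree of freedom ran from 16.5 to 83.4, above sampling noise. The code was tested on simulated data.

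The replicate numbers of the titles were checked for pairing by the correlation of deviations from the group means. Between BAT and WAT it was 0.55, 0.23 and 0.45 in controls and 0.62, 0.71 and 0.20 in AKO. For the block the numbers were therefore taken to pair the libraries of the 2 depots. The labels state no pairing, so the reported depot fits and the interaction left it out. With the block 11 of 30 genes were higher and 3 lower in BAT controls (background 25.8% and 28.3%). In AKO 17 of 31 were higher and 5 lower (background 28.3% and 30.0%). Between AKO and control it was -0.52, -0.08 and 0.20 in WAT and -0.65, -0.31 and 0.17 in BAT, so there they do not.

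The genes, the 10 related lists and the 13 lists of other cell types were chosen with earlier results of these data known. Any of the 31 genes could be named, with full values for Pecam1, Cdh5 and the 6 genes of smallest p in each comparison, and up to 4 genes of a related list. The Notch genes named in BAT AKO exceed that and were chosen after their values were seen. Alternatives were the size factors of DESeq2 used in edgeR, no filter, DESeq2 1.42.0, limma voom (limma 3.58.1), each library left out, the replicate number as a block, 1 fit of all 12, leaving out libraries with over 1% skeletal muscle counts, and WAT control 2 alone as WAT control. Library totals without TMM and percentages of Cdh5 were chosen after seeing the data.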

Additional observations from a re-analysis of the deposited data

How the results depend on the processing

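Among the 31 genes the calls of Kdr, Flt1 and Eng as higher and of Plvap and Vwf as lower in BAT controls held in all 14 settings. In WAT AKO against control, genes called higher and lower numbered 3 and 0 in the reported fit, 98 and 179 without a filter, 700 and 979 with DESeq2, 1 and 0 with limma voom, 0 and 0 with the replicate block, 439 and 591 with all 12 libraries in 1 fit, and 0 and 0 both without the libraries with most muscle counts and with WAT control 2 as the only control. Of the 31 genes, 1 was higher without a filter, and 1 was higher and 3 lower with DESeq2. With WAT control 2 as the only control the median was 0.0322 and Pecam1 was at 0.26. In BAT AKO against control the 7 higher and 4 lower genes became 17 and 16 without a filter, 133 and 147 with DESeq2, 1 and 0 with the replicate block, and 1 and 0 without the library with most muscle counts. DESeq2 called 1 of the 31 genes higher and 3 lower there.

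For BAT against WAT, library totals without TMM gave 2107 genes higher and 6253 lower in controls, with 3 and 5 of the 31, and 2068 and 8759 in AKO, with 8 and 7 of the 31 and a median of 0.0935. Pecam1 then turned to -0.011 in controls and -0.39 in AKO. For the interaction the 25 higher and 20 lower genes became 71 and 61 without a filter, 617 and 356 with DESeq2 (1 of the 31 higher), 16 and 8 with limma voom, 106 and 155 with the replicate block, 10 and 12 with library totals, and 3 and 2 without the libraries with most muscle counts. Its median turned to -0.0052 with the replicate block and to -0.11 with library totals. The cause of these differences was not tested. Beside the calls given in the report, the block changed no other call among the 31 genes.

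Leaving out 1 library at a time gave these ranges. In WAT AKO, 1 to 1066 genes were higher and 0 to 583 lower, with 0 to 1 of the 31 higher and a median from -0.64 to -0.0944, and Pecam1 ran from -0.49 to 0.19. In BAT AKO, 0 to 34 genes were higher and 0 to 61 lower, with 0 to 1 of the 31 lower, and Cdh5 ran from -0.14 to 0.0196. In BAT against WAT 3 to 22 of the 31 were higher in controls and 2 to 4 lower. For the interaction 1 to 242 genes were higher and 1 to 681 lower, with 0 to 1 of the 31 higher and a median from -0.21 to 0.22. Where 1 library was left for a group, it was assumed to vary like the others. Mmrn1 and Esm1 are limited by depth, at 0.969 CPM or less in BAT.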
